A study of Caenorhabditis elegans with 2 samples.

Results

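Binding of the transcription factor subunit NFYA-2 was followed at 5 Caenorhabditis elegans genes of oxidative protein folding: the protein disulfide isomerase genes pdi-1, pdi-2, pdi-3 and pdi-6, and the oxidase gene ero-1. The 5 genes share this function, were chosen with earlier results of these data known, and stand beside 19973 protein-coding genes of the nuclear genome. Whole young adults of strain RW12238 were used for chromatin immunoprecipitation with sequencing (ChIP-seq), with an antibody to GFP. The strain carries the allele st12238[nfya-2::TY1::EGFP::3xFLAG], which a CRISPR insertion made at nfya-2, so the antibody recognises the tag. The animals were 64 hours old and had been synchronised by bleaching and starvation as L1 larvae, and their chromatin was sonicated to 200 to 800 bp. The 2 libraries are biological replicates of 1 group, with no untagged strain, second stage or second strain analysed here. Whole animals mix all tissues, so binding in few cells and weak binding in many cannot be told apart, and the files hold no measure of the tagged protein itself.

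A list region was assigned to a gene when its summit, the base of highest signal, lay in the gene or within 1000 bp of its annotated start. The authors deposited a list of 71547 ranked regions that sets the replicates against each other, and 30 of these regions fell at the 5 genes. Each region has a signal over both replicates and a signal for each replicate, all in the peak caller's own units, and an irreproducible discovery rate (IDR), which is low where both replicates place a region equally high. The conservative list holds 281 of the regions, all with an IDR of at most 0.00999 and with a median signal of 71.1. Read depth is unknown, so the signals are used to order regions within a list.

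Protein disulfide isomerases are thioredoxin-fold enzymes of the endoplasmic reticulum (ER) that form, break and rearrange disulfide bonds in newly made secreted and membrane proteins. Ero1-type oxidases accept the electrons that this reaction yields and pass them to oxygen, which keeps the isomerases oxidised. In C. elegans the enzymes matter for the cuticle, whose collagens are cross-linked by disulfides and hydroxylated by an enzyme that contains PDI-2. NF-Y is a complex of A, B and C subunits that reads the sequence CCAAT through its A subunit. In mammals, CCAAT followed at a set distance by CCACG forms the ER stress element found before many folding genes, where NF-Y holds CCAAT and the stress factor ATF6 holds CCACG.

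The starts of 3 of the genes show how differently CCAAT is placed. Each line runs 5′ to 3′ in the direction of the gene, from 100 bp before the annotated start to 29 bp after it, and was read from the RefSeq genome sequence of WBcel235 (ce11). Capitals mark the extended NF-Y consensus, which is 2 purines, CCAAT, C or G, and 1 purine. In pdi-2 capitals also mark CCACG where it follows a CCAAT by 9 bases, as in the ER stress element. The pdi-6 window, chrX:7068534-7068663 on the minus strand, is shown because it lies under one of the strongest peaks and holds a single consensus site. The pdi-2 window, chrX:4524055-4524184 on the plus strand, is shown because it holds a pair of consensus sites and the element under a weaker region. The pdi-1 window, chrIII:3701432-3701561 on the minus strand, is shown because it holds no CCAAT and none of the 71547 ranked regions had its summit there.
pdi-6: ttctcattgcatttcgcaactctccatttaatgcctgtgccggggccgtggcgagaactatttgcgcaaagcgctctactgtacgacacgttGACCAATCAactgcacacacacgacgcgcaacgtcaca
pdi-2: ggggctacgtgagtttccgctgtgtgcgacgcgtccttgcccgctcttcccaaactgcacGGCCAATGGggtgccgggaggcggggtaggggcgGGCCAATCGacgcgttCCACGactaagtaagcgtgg
pdi-1: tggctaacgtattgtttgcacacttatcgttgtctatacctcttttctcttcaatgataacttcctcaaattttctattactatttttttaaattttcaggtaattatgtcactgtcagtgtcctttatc
The G and C content of these 130 bases was 52.3% at pdi-6, 66.2% at pdi-2 and 30.8% at pdi-1.

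Of the 5 genes, pdi-6 and pdi-3 had a conservative peak, while pdi-2, ero-1 and pdi-1 did not. By the same rule 260 of the 19973 protein-coding genes had one, which is 1.3%. The same 2 genes, and no other of the 5, were in each of the other 3 thresholded lists: the pooled series list, where 2% of protein-coding genes had a peak, the list of replicate 1 with 0.456% and the list of replicate 2 with 0.401%. The remaining 28 regions at the 5 genes were in none of the 4 lists. Their signals ran from 5.00 to 49.9 with a median of 21.9, close to the median of 23.0 over all ranked regions, and their IDR from 0.0542 to 0.835. Of the 30 regions, 14 had their summit in an intron, 10 in a coding exon, 5 upstream and 1 in a 5′ untranslated region. The rule takes in the whole gene, and the same split over all ranked regions was not counted.

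**Figure D1:**
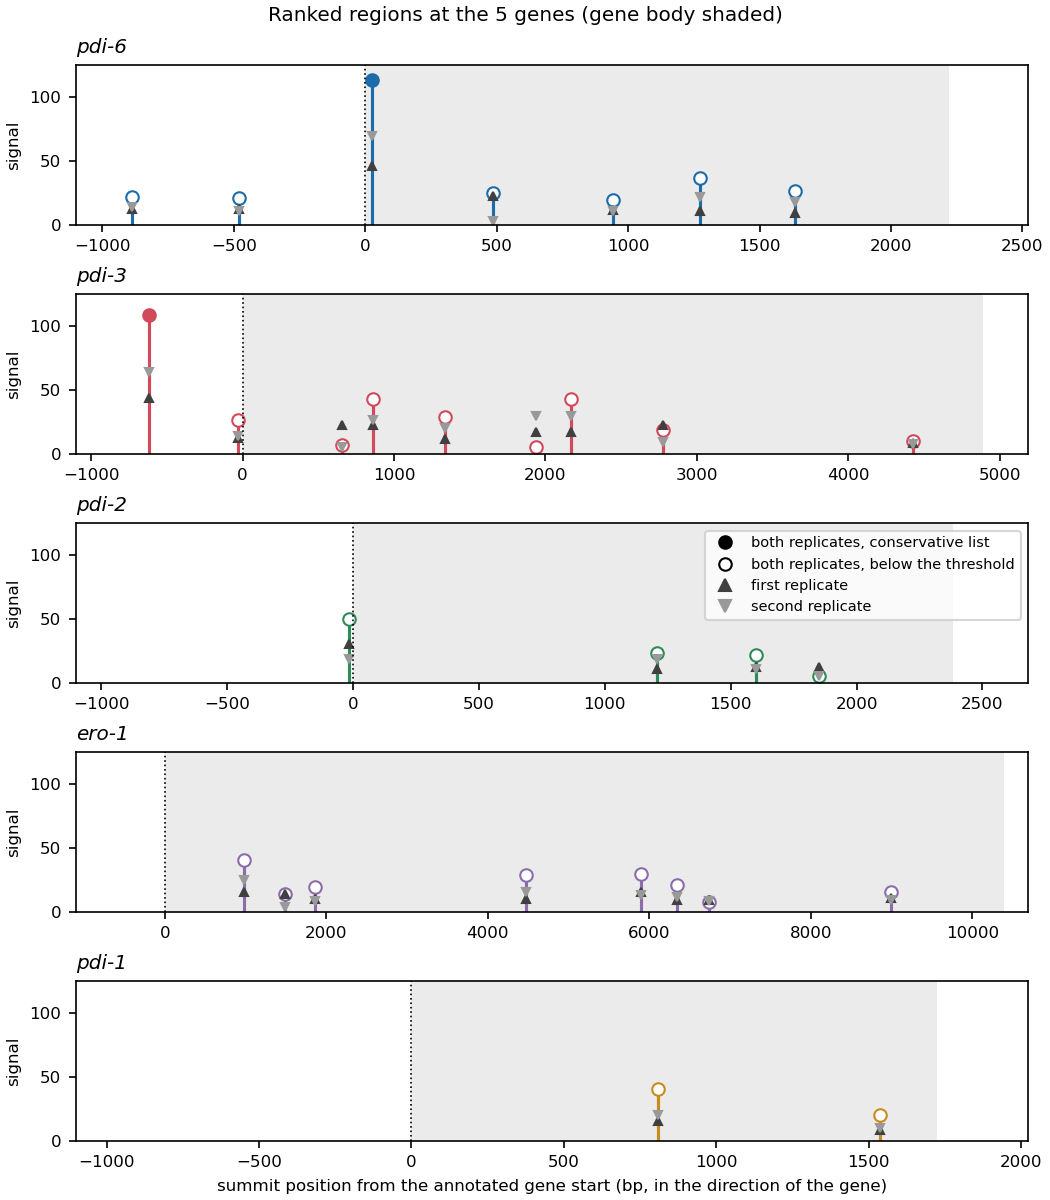
Signal (peak caller's units) of all 30 ranked regions against summit position from the annotated start (bp), one panel a gene, with the gene body shaded. Filled circles are conservative peaks, open circles regions below the threshold, and triangles the first and second replicate signals. The 2 filled circles, at pdi-6 and pdi-3, stand at 113 and 108, and every open circle lies at 49.9 or lower.

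pdi-6, which encodes an isomerase related to mammalian P5, had the strongest region of the 5 genes, at its start. The region spans chrX:7068416-7068655, and its summit lies 27 bp after the start, in the 5′ untranslated region (gene WBGene00015168, B0403.4, chrX:7066342-7068563, minus strand). Its signal was 113 over both replicates, 45.7 in the first replicate and 69.2 in the second, with an IDR of 0.000436. It stood at rank 30 of the 281 conservative peaks and at rank 31 of the 17672 protein-coding genes with a ranked region, each gene taken by its strongest one.

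The summit at pdi-6 was 26 bp after the start in replicate 1's own list and 7 bp before it in replicate 2's. The consensus site GACCAATCA has its first base 8 bp before the start, so its centre lies 31 bp from the summit of the combined list. It is the only CCAAT within 100 bp of that summit. The promoter is not shared with a divergent gene: the next gene upstream, B0403.6, lies on the same strand and ends 2827 bp away. The other 6 regions of pdi-6 reached at most 37.0, at a summit 1273 bp into the gene, and the 2 regions further upstream had signals of 21.7 and 20.9.

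pdi-3, which encodes an isomerase related to mammalian ERp57, had the other conservative peak, upstream of the gene and between a divergent pair. The region spans I:7021294-7021533, with a signal of 108 over both replicates, 43.8 in the first replicate and 64.3 in the second, and an IDR of 0.000541. It stood at rank 34 of the conservative peaks and at rank 35 among protein-coding genes. Its values in both replicates were close to those of pdi-6, and in each replicate both peaks exceeded all of the other 28 regions at the 5 genes.

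The pdi-3 summit lies 617 bp before the start of pdi-3 (WBGene00003964, H06O01.1, I:7015908-7020797, minus strand) and 558 bp before the start of ubql-1, which encodes a ubiquilin on the opposite strand. The starts of both genes are 1175 bp apart, so the peak sits near the middle of their shared upstream sequence. Whether the peak serves either gene, and which one, cannot be told from its position. The annotated noncoding RNAs VF15C11L.1 and VF15C11L.2, on opposite strands, also cover the summit. A CCAAT lies 3 bp from the summit without the extended context, a consensus site lies 59 bp from it, and a CCAAT on the opposite strand lies 87 bp from it. Replicate 1 placed the summit 604 bp before pdi-3 and replicate 2 placed it 615 bp before.

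At the start of pdi-3 itself the signal was ordinary. A region with its summit 31 bp before the start had a signal of 26.2, with 12.3 in the first replicate and 13.8 in the second, and an IDR of 0.584. Inside the gene, regions 2171 and 860 bp from the start had signals of 43.2 and 42.7, both in introns. The intronic region at 860 bp had an IDR of 0.0542. In the ranked list that sets the replicates against each other, this was the lowest IDR of the 28 regions that missed the thresholded lists. Its first replicate signal of 22.3 was identical to that of the pdi-3 region 656 bp from the start.

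Neighbours in the conservative list give the scale of these peaks. Directly above pdi-6 were a peak of 114.0 whose nearest protein-coding start, that of T24D5.1, is 10937 bp away, and a peak of 113.5 lying 189 bp before cdc-48.1, which encodes an AAA ATPase of ER-associated degradation. Directly below it were peaks of 112.0, nearest to zip-2, and 111.0, nearest to ccm-2. The ccm-2 peak and a peak of 109.6 at D2096.7 came just above pdi-3, and peaks of 106.8 near C27F2.7 and 106.2 near Y55F3AR.2 just below it. The extended consensus lay within 100 bp of the summit at 0 of these 7 neighbouring peaks and at both isomerase peaks. It lay at 31 of all 281 conservative peaks (11.0%), so 0 of 7 is near that share.

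**Figure D2:**
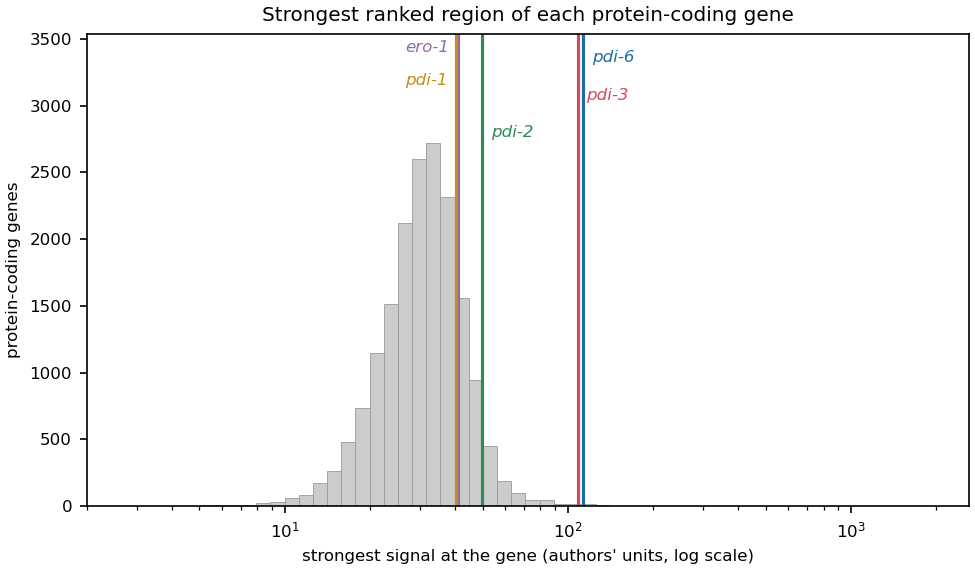
Number of protein-coding genes (vertical axis) by the signal of their strongest ranked region (horizontal axis, peak caller's units, log scale), for the 17672 genes with a region, with a line for each of the 5 genes. The lines of pdi-6 at 113 and pdi-3 at 108 lie in the far right tail, that of pdi-2 at 49.9 on the right slope, and those of ero-1 and pdi-1 at 40.9 and 40.3 just above the upper quartile of 37.7.

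pdi-2, the isomerase that also serves as the beta subunit of collagen prolyl 4-hydroxylase, had a region at its start that missed every thresholded list. It spans chrX:4524019-4524258, with its summit 16 bp before the start (WBGene00003963, C07A12.4, chrX:4524155-4526536, plus strand). The signal was 49.9 over both replicates, 30.8 in the first replicate and 18.4 in the second, with an IDR of 0.145. The replicates thus ranked it apart. It was region 469 of 44931 in replicate 1's own list and region 16966 of 55696 in replicate 2's, where 30.5% of regions were higher and where another region of the gene, 512 bp after the start, was stronger with a signal of 20.3. In the other ranked list of the series, of 121011 regions, the start region had the same combined signal of 49.9 and a lower IDR of 0.0256.

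In log2 terms the second replicate signal of the pdi-2 start region differed from the first by -0.74, and 75.4% of all ranked regions had a higher value. The median over all ranked regions was -0.12. The strongest regions of the other 4 genes leaned the other way, with values of 0.60 at pdi-6, 0.55 at pdi-3, 0.64 at ero-1 and 0.37 at pdi-1. Of all ranked regions, 16.5%, 18.3%, 15.1% and 26.1% had a higher value than these, in that order. The median strongest signal over protein-coding genes was also higher in replicate 2's own list, 19.5, than in replicate 1's, 16.5. With 1 value per replicate, none of the log2 differences has an error of its own.

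Few regions shared the arrangement of letters at the pdi-2 start, printed above. The summit lies between GGCCAATGG, whose centre is 20 bp before it, and GGCCAATCG, whose centre is 14 bp after it, and the sites are 34 bp apart on the same strand. CCACG follows the second CCAAT by 9 bases, so that an ER stress element runs from 4 bp before the annotated start into the transcribed sequence. Of all ranked regions, 21 (0.0294%) held such an element within 100 bp of the summit, and 219 (0.306%) held 2 or more consensus sites. The pdi-2 start was the only region with both. It had the highest signal of the 21, whose median was 20.05, and rank 28 of the 219, whose median was 29.9.

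G and C made up 61.2% of the bases within 100 bp of the pdi-2 summit, and 0.268% of ranked regions were higher. The part of base composition in the signal was not tested. The noncoding RNA C07A12.19 covers the summit as well. The divergent neighbour C07A12.7 starts 2011 bp from pdi-2, with the summit near the pdi-2 end of that interval. The other 3 regions of pdi-2 had signals of 23.3, 22.0 and 5.00, all in coding exons.

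pdi-1, an isomerase gene that is transcribed together with the cyclophilin gene cyn-9 lying downstream of it, had no ranked region before its start. Its strongest region, chrIII:3700534-3700773, has its summit 807 bp into the gene, in a coding exon (WBGene00003962, C14B1.1, chrIII:3699739-3701461, minus strand). The signal was 40.3 over both replicates, 15.5 in the first replicate and 20.1 in the second, with an IDR of 0.354. No region of replicate 1's own list overlapped it. That list had its strongest region 192 bp from the start instead, with a signal of 25.02. The second region of pdi-1 had a signal of 20.2, with its summit 285 bp from the start of cyn-9.

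The divergent gene C14B1.2 starts 799 bp from pdi-1, and no ranked region had its summit in that shared interval. Neither region of pdi-1 held CCAAT within 100 bp of its summit, although 2 CCACG words lay near the stronger summit. The rank of pdi-1 among protein-coding genes was 3157, with 17.9% of genes above it. In replicate 1's own list 7.65% of genes were above it, by the region at 192 bp, and in replicate 2's 46.2%.

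ero-1, the oxidase that recharges the isomerases, also had no ranked region within 1000 bp before its annotated start. Its strongest region, I:14665315-14665554, had a signal of 40.9 over both replicates, 15.9 in the first replicate and 24.8 in the second, with an IDR of 0.262. The summit lies 986 bp into the gene (WBGene00001334, Y105E8B.8, I:14664449-14674841, plus strand), in a coding exon. It is 44 bp before the start of Y105E8B.8b, a shorter one of the gene's 4 annotated transcripts. The region held 3 CCAAT words, 43, 47 and 81 bp from the summit, and no extended consensus.

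ero-1 is 10393 bp long, a length that 4.61% of protein-coding genes exceed, and a longer gene takes in more regions by the rule. It held 8 regions, of which the second had a signal of 29.4 and the lowest 7.94. Among protein-coding genes its strongest region was at rank 2969, with 16.8% of genes above it. That place depends on the replicate, with 54.6% of genes above it in replicate 1's own list and 20.9% in replicate 2's. The gene upstream, Y105E8B.6, is on the same strand and ends 1308 bp before ero-1. The strongest regions of ero-1 and pdi-1 differed by less in signal than their own replicate values did, so their order is not resolved.

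**Figure D3:**
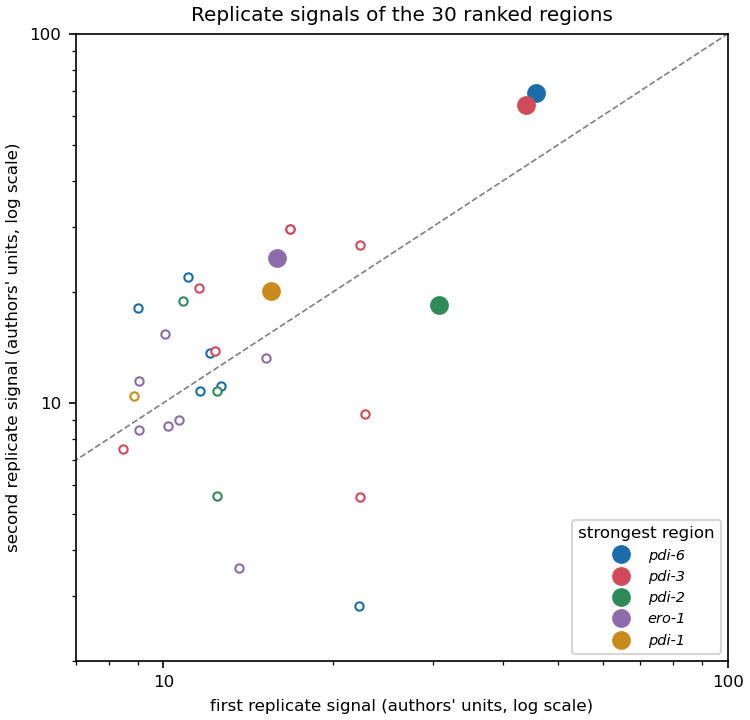
First replicate signal (horizontal axis) against second replicate signal (vertical axis), both in the peak caller's units on log scales, for the 30 regions, coloured by gene. Large points are the strongest region of each gene, and the dashed line marks equal signals. pdi-6 (45.7 and 69.2) and pdi-3 (43.8 and 64.3) stand together at the upper right, and pdi-2 (30.8 and 18.4) is the 1 large point below the line.

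The replicate signals of regions below the threshold were less separate than the list of 30 makes them look. In 8 of the 30, a replicate signal was identical to that of another region of the same gene. The pdi-3 regions with signals of 43.2 and 42.7 were among the 8. The signals called first and second equalled a value in the lists of replicate 1 and replicate 2 in 23 and 17 of the 30 regions. Over all ranked regions the shares were 63.3% and 48.2%, and for the opposite replicate 2.89% and 2.21%. For the strongest regions of pdi-6, pdi-3, pdi-2 and ero-1 both values were those of the overlapping regions in the lists of the replicates.

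Words near the strongest summits were searched on both strands. CCAAT lay within 100 bp of 4 of the 5 strongest summits, all but that of pdi-1, and within 100 bp of 37.8% of all ranked summits. The extended consensus, which contains CCAAT, lay at 3 of 5, those of pdi-6, pdi-3 and pdi-2, against 2.64% of all ranked regions and 11.0% of conservative peaks. The ER stress element, which also begins with CCAAT, lay at 1 of 5, that of pdi-2, against 0.0294% of all ranked regions. It lay at 0 of the 281 conservative peaks, too few to read that 0 against so small a share. With a spacing of 8 to 10 bases allowed, 64 ranked regions (0.0895%) and 1 conservative peak held it. Among the other 25 regions of the 5 genes none held the extended consensus or the element, which is near the shares over all ranked regions.

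**Figure D4:**
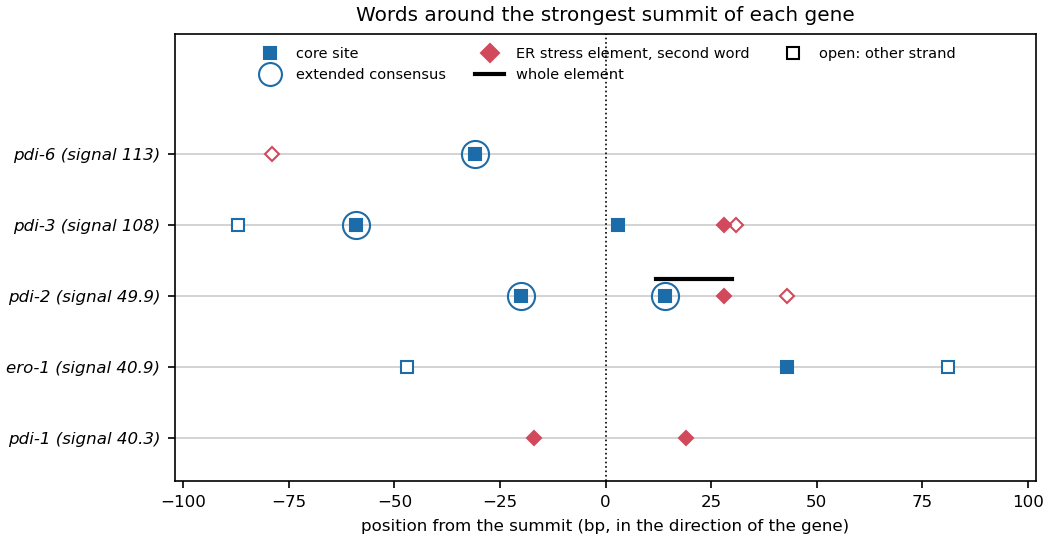
Position of each word (bp from the summit, in the direction of the gene) around the strongest summit of each gene, from the strongest gene at the top to the weakest at the bottom. Squares are CCAAT, circles the extended consensus, diamonds CCACG and the bar the ER stress element, with open symbols on the opposite strand. Sites flank the pdi-2 summit on both sides, at -20 and 14 bp, while the nearest consensus sites at pdi-6 and pdi-3 lie 31 and 59 bp away.

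In the 1000 bp before each start, CCAAT occurred 6 times before pdi-2, 5 times before pdi-3 and 4 times before pdi-6, and did not occur before pdi-1 or ero-1. The median protein-coding gene had 2, and 2428 genes had none. More copies than at pdi-2 were found in 1.27% of genes, more than at pdi-3 in 3.47% and more than at pdi-6 in 8.44%. Both genes without CCAAT before the start also had no ranked region there. From 1000 bp before to 200 bp after the start, 7728 of the 19973 protein-coding genes had no ranked region. The 2 genes are therefore too few to link the 2 absences. The extended consensus occurred 1 time in the 1000 bp before the start at pdi-2 and at pdi-3. It did not occur there at pdi-6, pdi-1 or ero-1, against 8.77% of protein-coding genes with at least 1. The pdi-6 site ends on the first base of the gene.

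Near the start, however, a consensus site seldom came with a peak in the genome as a whole, as counts chosen after the values of the 5 genes were seen showed. Within 100 bp of the start, 417 protein-coding genes (2.09%) had the extended consensus, pdi-2 and pdi-6 among them, and 11 of the 417 (2.64%) had a conservative peak, against 1.3% of all protein-coding genes. Only 4 genes had 2 or more such sites there, and pdi-2 had the highest signal of them. An ER stress element lay within 100 bp of the start of 5 genes. Their strongest signals were 49.9 at pdi-2, 29.3 at F17C8.7, 25.2 at sup-10 and 21.2 at C53A5.17, and Y44A6C.2 had no ranked region. No gene with the element or with 2 or more consensus sites there was in the conservative list, but these are 5 and 4 genes, too few to read a 0 against the share of 1.3%. Around summits, 2 or more consensus sites lay at 12 of the 281 conservative peaks (4.27%), against 0.306% of all ranked regions.

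Of 28 listed names of other genes of the pathway 27 were matched, and 0 of these 27 were in any of the 4 thresholded lists. With shares over all protein-coding genes of 1.3%, 2%, 0.456% and 0.401%, a count of 0 of 27 does not set these genes apart. The median of their strongest signals was 32.6, against 49.9 for the 5 genes above and 29.6 for all protein-coding genes, with a gene without a region entered at 0. None of their strongest regions held the extended consensus or the ER stress element. Over all ranked regions the shares were 2.64% and 0.0294%, so these counts of 0 do not set the genes apart either.

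Among 10 other ER thioredoxin-fold and oxidase genes the median was 35.5. The highest were F35G2.1 with 52.3 (24.5 and 24.9 in the first and second replicate, IDR 0.0503) and C14B9.2 with 46.1, with summits 4770 and 1914 bp into the genes. F35G2.1 exceeded pdi-2 in signal and had the lower IDR, yet lay far from its start. Among 5 partners of the isomerases and collagen-modifying enzymes the median was 31.9, led by let-268, which encodes a procollagen lysyl hydroxylase, with 48.5 at 6281 bp from its start. dsc-4, which encodes the large subunit of a microsomal triglyceride transfer protein whose partner is an isomerase in mammals, followed with 37.2. Among 12 glutathione, thioredoxin and peroxiredoxin genes the median was 32.0. The peroxiredoxin genes prdx-3, with 48.4 at 114 bp after its start, and prdx-2, with 43.8 at 773 bp before its start, were highest.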

How the data were processed

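ChIP-seq peak lists from 2 biological replicates of 1 group were used. The authors deposited ranked and thresholded lists on ce11, per the labels and file headers, with a signal for each region and the −log10 of its global IDR, which was converted to a rate. For the aligner and the caller, neither name nor version is given in the sources used here. The files used hold no read counts, so depth is unknown. The replicate signals in the ranked list carry no sample names and are called first and second. Ranked lists of 71547 regions (replicates against each other), 121011 (the other series list), 44931 (replicate 1) and 55696 (replicate 2) were read, with thresholded lists of 281, 435, 92 and 90 peaks. No sample column was left unmapped (0).

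Genes came from Ensembl release 115 (WBcel235). Words were searched on both strands in 201 bases around summits. Analyses used Python 3.11.15, numpy 2.4.6 and pandas 2.3.3, and were checked on simulated data. With 1 group there was no test between groups. The 5 genes, the lists and the searched words were chosen with earlier results of these data known. Genes named beside the 5 were their neighbours, the 2 conservative peaks above and below each peak, and the 2 highest genes of each list without a peak. A planned extension of 1 list by protein sequence was not made. Alternatives changed the list, the replicate, the window and the spacing.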

Additional observations from a re-analysis of the deposited data

How the results depend on the processing

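The count of 2 genes with a conservative peak was the same in the pooled list, in either replicate's list, above the median signal and with a window of 2000 bp. The pooled list holds the same 2 peaks with the same signals, 113 and 108, and both exceed the median of 71.1. Those settings are therefore no separate check. The count was 1 with a window of 500 bp and 1 when each summit went to its nearest start, since the pdi-3 summit is 617 bp from pdi-3 and nearer to ubql-1. In the lists of single replicates, which rest on fewer reads, the strongest signal ran from 20.1 to 25.02 at pdi-1, from 20.3 to 30.8 at pdi-2, from 43.8 to 64.3 at pdi-3, from 45.7 to 69.2 at pdi-6 and from 15.9 to 24.8 at ero-1. At pdi-2 the 30.8 was a region 19 bp before the start and the 20.3 a region 512 bp after it. At pdi-1 the 25.02 lay 192 bp and the 20.1 lay 797 bp into the gene. For these genes the ranges therefore do not follow 1 region. Ranks among protein-coding genes ran from 24 to 55 for pdi-6, from 33 to 70 for pdi-3, from 343 to 7541 for pdi-2, from 3505 to 8667 for ero-1 and from 1215 to 7745 for pdi-1. Without replicate 1 pdi-2 ranked 7541, so its place rests on that replicate. With promoters alone, pdi-6, pdi-3 and pdi-2 ranked 24, 26 and 391, and pdi-1 and ero-1 gave no value. Within 50 bp of the summit 2 genes kept the extended consensus. The ER stress element was at 0 genes in the 1000 bp before the start, because the pdi-2 element crosses the start. No paired analysis was possible because the study has 1 group and so no groups to pair.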
